A study of Mus musculus with 12 samples.

Results

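The genes described here were 33 mouse genes of glycolysis and of the cellular response to hypoxia, chosen by name for their known function, with no threshold on a measured value. Earlier results of these data were known when the list was made, so no p-value was computed over the list and its contrast with all genes is a description. The list covered 2 glucose transporters, 3 hexokinases, 6 genes of upper glycolysis, 2 phosphofructokinase/fructose bisphosphatase enzymes, 6 genes of lower glycolysis, 4 genes of lactate conversion and transport, 2 pyruvate dehydrogenase kinases, *Hif1a* with 2 of its prolyl hydroxylases, and 5 further known targets of hypoxia-inducible factor (HIF). They took up 34 of the 55401 gene rows in the count data, because *Aldoa* had a second identifier with few counts. All 33 genes passed the filter on low counts on their main identifier, and that second *Aldoa* row did not.

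RNA had been sequenced from microglia, the resident macrophages of the brain, sorted from male mice as CD45int CD11b+ cells in 12 libraries. The 4 groups, WT and miKO after Sham surgery or after tFCI, had 3 libraries each, every library pooling hemispheres of several mice. The study asked what histone deacetylase 3 (HDAC3), a member of a nuclear corepressor complex, does in microglia after ischemic stroke. Transient focal cerebral ischemia (tFCI) was a 60 min occlusion of the middle cerebral artery by a filament, the cells being taken on day 3, and Sham mice had the anesthesia and vessel exposure without the occlusion. The mice of all 4 groups carried loxP-flanked *Hdac3* on both alleles and all received tamoxifen for 5 days at 6 to 8 weeks of age, at least a month before surgery. The miKO mice had in addition the tamoxifen-dependent Cre recombinase CreER in 1 allele of *Cx3cr1* (CX3CR1CreER/wt), a gene of microglia and of other mononuclear phagocytes, whereas WT mice were CX3CR1wt/wt. The genotype comparisons therefore held the loss of *Hdac3*, active CreER and the loss of 1 *Cx3cr1* copy together, and these cannot be told apart.

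Glycolysis turns glucose into pyruvate in the cytosol and yields ATP without oxygen. Pyruvate is then reduced to lactate and exported, or it enters the mitochondrion through pyruvate dehydrogenase, which pyruvate dehydrogenase kinases switch off. Under normal oxygen, prolyl hydroxylases mark the HIF alpha subunit for destruction, and when oxygen falls the stable factor raises the transcription of glucose transporters, most glycolytic enzymes and genes such as adrenomedullin. In macrophages and microglia many of the same genes are also known to rise with inflammatory activation.

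HIF binds DNA at a short core, ACGTG or GCGTG. These letters were searched on both strands in the 250 bases before each RefSeq transcription start (build GRCm38.p6), where a match of ACGTG can lie inside the longer CACGTG. They were present in 29 of the 32 member genes with a start in the table (90.6%) and in 11226 of 27025 genes in all (41.5%). Counted by window, 36 of 44 member windows (81.8%) and 12679 of 32851 windows of the genome (38.6%) held at least 1 match. The palindrome CACGTG was in 13.6% of member windows and 6.02% of all windows. Member windows were richer in G and C, with a median of 62.8% against 52.4%, and the shares were not matched for base composition. *Slc2a3* had no entry. The windows below belong to 4 genes that rose after tFCI in WT microglia and to 2, *Hk2* and *P4ha1*, that fell. They are printed 5′ to 3′ on the strand of the gene, with each match, or its reverse complement where the match lies on the other strand, in capitals, and a match is a description of the letters only.
Ldha, chr7:46845554-46845803 (+): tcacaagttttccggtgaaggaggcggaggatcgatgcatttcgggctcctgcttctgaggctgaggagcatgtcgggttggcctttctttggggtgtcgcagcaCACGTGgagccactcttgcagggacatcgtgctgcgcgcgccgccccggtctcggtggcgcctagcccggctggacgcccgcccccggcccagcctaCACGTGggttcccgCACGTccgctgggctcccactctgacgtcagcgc
Pgk1, chrX:106186850-106187099 (+): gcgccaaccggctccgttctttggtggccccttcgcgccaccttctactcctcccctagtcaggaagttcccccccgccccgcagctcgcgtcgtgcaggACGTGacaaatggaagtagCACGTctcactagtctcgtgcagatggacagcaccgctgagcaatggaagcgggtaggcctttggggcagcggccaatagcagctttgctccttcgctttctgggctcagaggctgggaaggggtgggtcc
Eno1, chr4:150236947-150237196 (+): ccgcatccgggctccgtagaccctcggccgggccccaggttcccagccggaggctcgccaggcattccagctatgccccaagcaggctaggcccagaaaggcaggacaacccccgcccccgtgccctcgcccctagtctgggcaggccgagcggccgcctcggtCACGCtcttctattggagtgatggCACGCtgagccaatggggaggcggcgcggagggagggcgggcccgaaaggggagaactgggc
Adm, chr7:110627407-110627656 (+): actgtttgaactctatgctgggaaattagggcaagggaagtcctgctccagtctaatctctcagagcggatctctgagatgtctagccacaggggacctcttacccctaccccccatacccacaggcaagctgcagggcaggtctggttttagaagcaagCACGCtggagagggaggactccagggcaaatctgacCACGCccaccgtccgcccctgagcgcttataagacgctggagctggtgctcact
Hk2, chr6:82774455-82774704 (-): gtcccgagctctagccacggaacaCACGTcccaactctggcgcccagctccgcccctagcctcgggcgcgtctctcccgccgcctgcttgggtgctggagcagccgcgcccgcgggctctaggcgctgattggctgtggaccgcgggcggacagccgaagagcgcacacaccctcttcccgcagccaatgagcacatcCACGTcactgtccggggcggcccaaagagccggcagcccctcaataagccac
P4ha1, chr10:59323046-59323295 (+): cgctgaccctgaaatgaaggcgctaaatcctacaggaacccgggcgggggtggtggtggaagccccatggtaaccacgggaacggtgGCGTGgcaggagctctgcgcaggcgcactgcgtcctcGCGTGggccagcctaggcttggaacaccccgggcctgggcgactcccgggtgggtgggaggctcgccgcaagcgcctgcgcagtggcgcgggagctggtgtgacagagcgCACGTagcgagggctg
The *Ldha* window held CACGTG at 2 places and the most matches of the 6, because each CACGTG was counted once per strand. By separate stretches of capitals the *Ldha* and *P4ha1* windows held equally many. The windows of *Hk2* and *P4ha1* also held matches. *Ldha* had 2 windows and *Eno1* 3, of which 1 each is printed, and the other *Ldha* window held 1 match.

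Between 7697864 and 9452222 counts per library fell on genes. *Hdac3* had 35.0, 44.0 and 46.4 CPM (read counts scaled to the library total and by the TMM factors of edgeR) in WT-Sham and 25.8, 25.0 and 20.9 in miKO-Sham, then 54.0, 52.9 and 43.9 in WT-tFCI and 36.0, 27.1 and 28.9 in miKO-tFCI. Its log2 fold change (log2FC) in the edgeR quasi-likelihood fit, with p-values adjusted by Benjamini-Hochberg, was -0.81 ± 0.16 (SE) in miKO-Sham vs. WT-Sham (adjusted p = 0.00281) and -0.71 ± 0.16 in miKO-tFCI vs. WT-tFCI (adjusted p = 0.0127). Replicate 1 of each group was labelled batch 1 and replicates 2 and 3 batch 2, with no word on what the batch was, and batch was a term of the fit. The library labelled miKO-Sham replicate 2 lay with replicate 1 and not with replicate 3: the chi-square per degree of freedom of their counts was 2.85, against 20.4 to 85.8 for the other pairs across batches and 3.75 to 13.6 for the batch 2 pairs of the other groups. Whether these libraries came from separate pools of mice was not tested, and if they did not, miKO-Sham has 2 independent libraries and its p-values are too small. With them summed to 1 library, 17 members were higher and 5 lower DEGs in miKO-tFCI vs. miKO-Sham and 6 and 1 in miKO-Sham vs. WT-Sham. Summed microglial markers (10 genes, none at 0) ran from 24100 to 31170 CPM in WT-Sham, 20050 to 24750 in miKO-Sham, 16930 to 18720 in WT-tFCI and 8223 to 15760 in miKO-tFCI. Monocyte and macrophage markers (12 genes) summed to 48.5 to 129, 78.4 to 222.9, 444.5 to 746 and 680.9 to 1183 CPM in the same order, and endothelial markers (8 genes) to 17.5 to 24.9, 12.4 to 24.6, 78.8 to 260.2 and 158.3 to 491. Neutrophil markers (12 genes) summed to 639.8 to 1393, 1136 to 1159, 549.2 to 613.2 and 1159 to 1393 CPM, and border-associated macrophage markers (8 genes) to 94.9 to 124, 101.7 to 276.3, 180 to 281.7 and 324.4 to 624.7, so that both sums were higher in every miKO-tFCI than in every WT-tFCI library. Replicate 1 of each tFCI group had the lowest microglial, neutrophil and border-associated macrophage sums. It had the highest endothelial and the highest monocyte and macrophage sums of its group. Astrocyte markers also peaked there (286.8 CPM in WT-tFCI, 598.8 in miKO-tFCI), as did dendritic cell markers (125.8 and 342.9). The part of these other cells in the results below was not tested beyond the values given beside them. Replicate 1, the batch 1 library, was also the highest of its group for 24 of the 33 members in WT-tFCI and 19 in miKO-tFCI. In miKO-tFCI it exceeded 1.5 times the next library for *Adm*, *Egln1*, *Egln3*, *Eno2*, *Gpi1*, *Ldhb*, *Pfkm*, *Pfkp* and *Slc2a1*. A peak in that library is therefore not particular to the genes named beside a marker sum below. In bulk RNA, fewer cells of a type and less RNA per cell cannot be told apart. Replicates are pools, and p-values measure the spread between these pools only.

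The members as a group took a larger share of the RNA after tFCI in both genotypes. They held 0.392% to 0.395% of the counts on genes in WT-Sham, 0.428% to 0.463% in miKO-Sham, 0.66% to 0.739% in WT-tFCI and 0.674% to 0.872% in miKO-tFCI. Their summed level was 3560 to 3758 CPM in WT-Sham, 4820 to 5040 in miKO-Sham, 6186 to 7220 in WT-tFCI and 7093 to 8511 in miKO-tFCI, with no overlap between the ranges of WT-Sham, miKO-Sham and the tFCI groups. The median of the 33 log2 fold changes was 0.86 after tFCI in WT and 0.84 after tFCI in miKO, where the median of all 16451 genes tested was 0.02 and 0.03. The sums follow the highest members. In miKO-Sham vs. WT-Sham the member median was 0.01, with 17 members above 0 and 16 below. *Eno1* had a mean of 317 CPM in WT-Sham and 946 in miKO-Sham, and *Aldoa* 413 and 772.

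A differentially expressed gene (DEG) had an adjusted p below 0.05 and a log2FC beyond 0.58 in size, and a gene that met the p threshold alone is said to have passed. In WT-tFCI vs. WT-Sham, 18 members were higher DEGs and 2 lower, where 20.9% of all genes tested were higher DEGs and 11.7% lower. In miKO-tFCI vs. miKO-Sham the counts were 19 and 4, against 21.9% and 13.9% of all genes, the 4 including *Gapdh*, whose sign turned when its near-identical copies were added. These comparisons share no library but come from the same fit, and 15 higher DEGs were common to both, 83.3% of the WT list and 78.9% of the miKO list. The matching overlap over all genes was not computed, so these shares have no background here. By adjusted p alone 18 members were higher and 4 lower in WT (23.5% and 15.4% of all genes) and 20 and 7 in miKO (24.5% and 17.7%). The tFCI libraries lay wholly above the Sham libraries for 20 members and wholly below for 4 in WT (26.9% and 22.9% of all genes) and for 18 and 5 in miKO (26.5% and 21.6%). Both lower DEGs of WT, *P4ha1* and *Pfkfb4*, were also among the 4 of miKO, and no member was a DEG in opposite directions. Genotype moved fewer members. In miKO-Sham vs. WT-Sham there were 6 higher and 1 lower DEG (8.58% and 6.8% of all genes), and in miKO-tFCI vs. WT-tFCI 2 higher and 1 lower (4.08% and 4.71%). The member medians of the 2 genotype comparisons, 0.01 and 0.12, lay beside all-gene medians of 0.04 and 0.04. By adjusted p alone 8 were higher and 2 lower in Sham (9.94% and 8.12% of all genes) and 5 and 3 after tFCI (4.5% and 5.4%), and the libraries of the genotypes did not overlap for 9 higher and 5 lower members in Sham (17% and 16.2%) and for 5 and 4 after tFCI (9.58% and 13.3%). With single libraries left out, these DEG genotype counts ran from 4 to 7 higher and 0 to 2 lower in Sham and from 0 to 3 higher and 0 to 2 lower after tFCI, the libraries that decide each call being named with the gene below. The interaction of genotype and surgery, which asks whether tFCI acted differently in the 2 genotypes, called 1 member, *Eno1*, as lower (1.25% of all genes were called higher and 2.57% lower). For every member that passed a test of one of these comparisons, the sign was the same in batch 1 and in batch 2 taken alone, except *Ldhb* in miKO-tFCI vs. miKO-Sham. These members were picked by the fit of the same libraries, and batch 1 held 1 library per group. The shared sign is therefore no independent check.

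**Figure D1:**
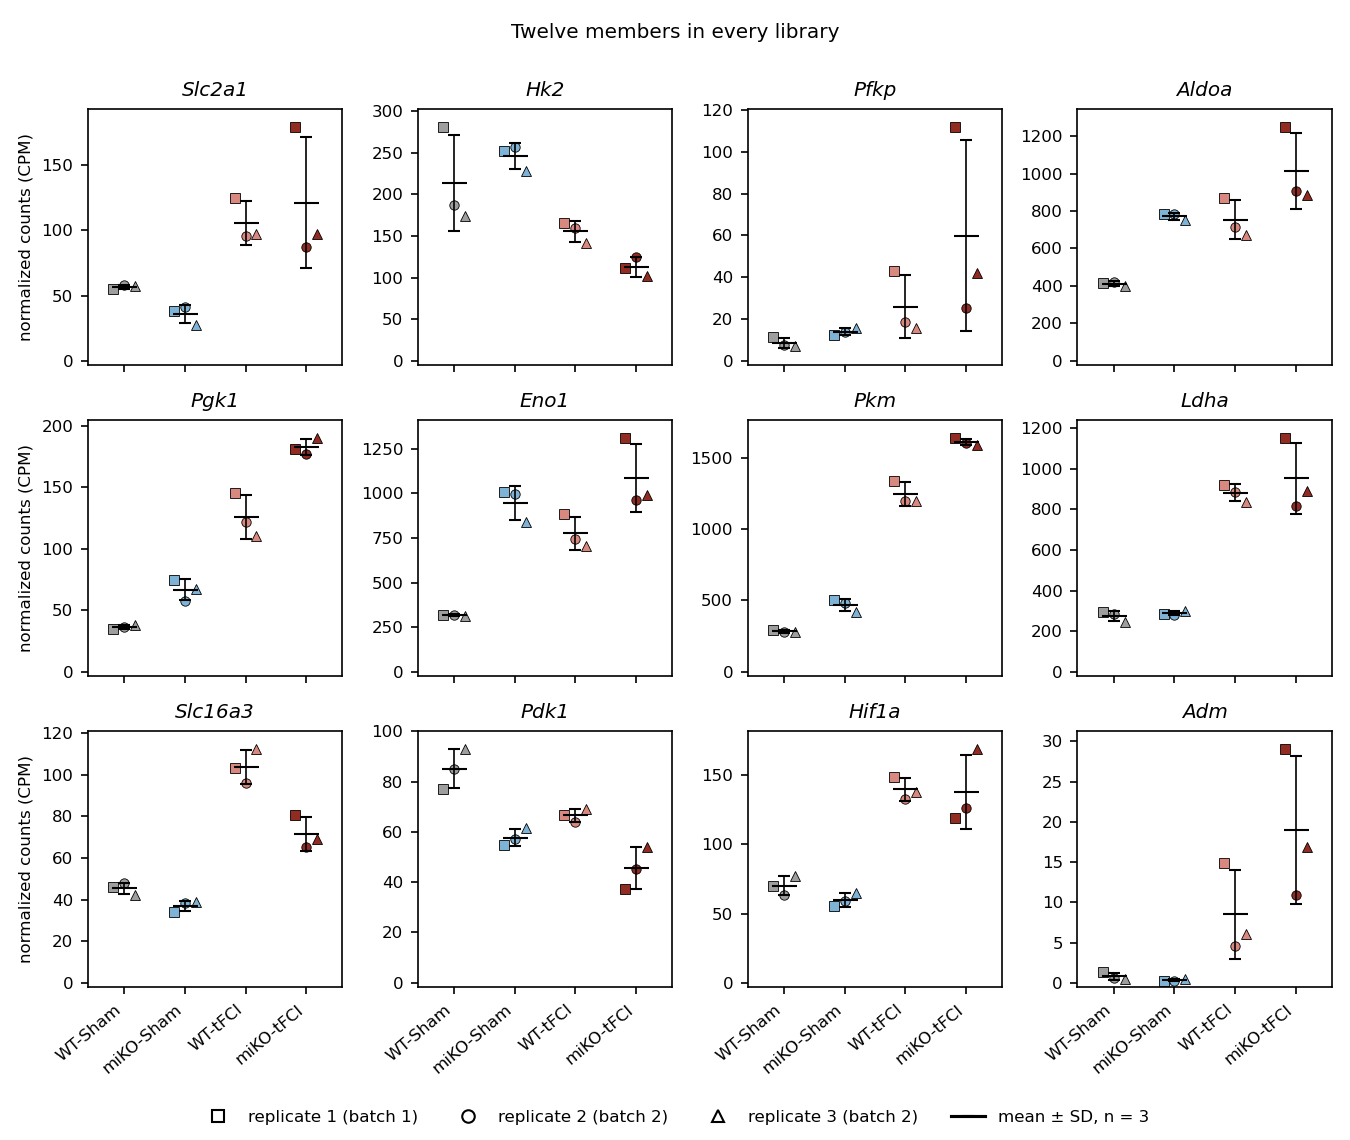
CPM of 12 members in each of the 12 libraries, in panels with an axis from 0. Squares, circles and triangles are replicates 1, 2 and 3, and the bar is the mean ± SD of the 3. *Pkm*, *Ldha*, *Pgk1* and *Hif1a* were higher in all tFCI than in all Sham libraries, *Hk2* was lower, and *Eno1* stood at 837 to 1005 CPM in miKO-Sham against 312 to 321 in WT-Sham.

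**Figure D2:**
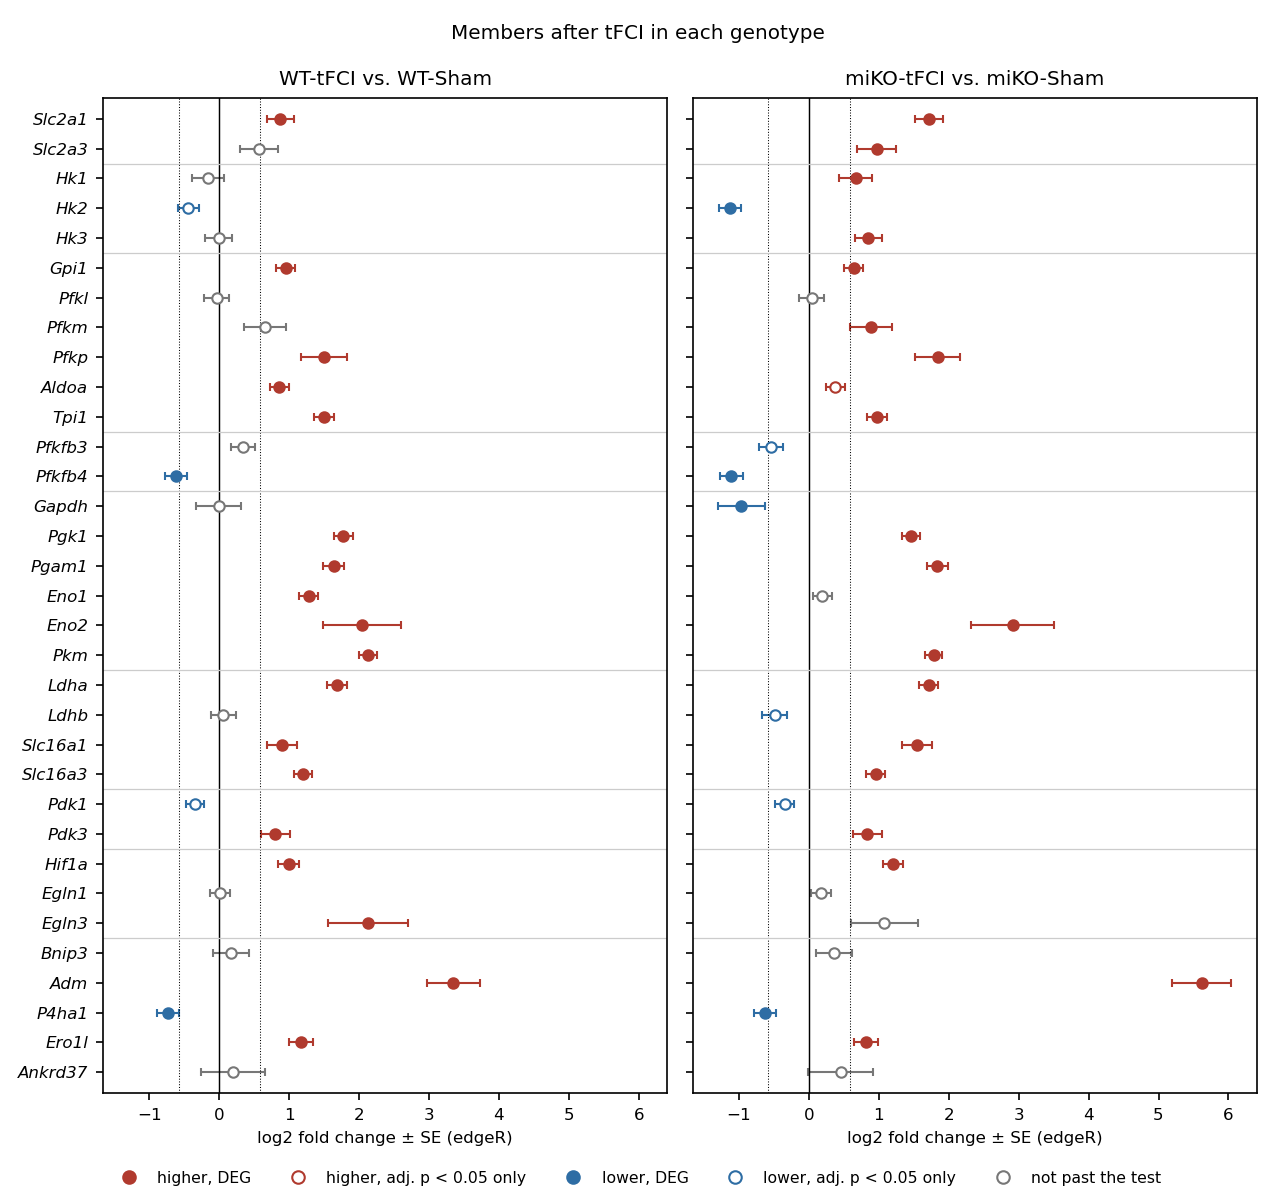
Log2FC of the 33 members after tFCI in WT and in miKO microglia, with bars of 1 SE from edgeR. Filled points are DEGs, coloured open points passed by adjusted p alone and the dotted lines stand at 0.58 on either side of 0. *Adm* and *Pkm* were among the highest and *Hk2*, *Pfkfb4* and *P4ha1* among the lowest in both genotypes.

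Levels can be set side by side between genes only per length, as CPM per kilobase of the principal transcript. In WT-Sham the highest member on this scale was *Ldhb* at 385 ± 51.1, followed by *Aldoa* at 273 ± 7.13 and then *Eno1* and *Ldha* at 156 ± 2.26 and 155 ± 14.4, which did not differ beyond their spread. In WT-tFCI *Pkm* led at 512 ± 33.9, and *Ldha* at 499.6 ± 23.7 and *Aldoa* at 499 ± 68.3 lay within their spread of it, above *Ldhb* at 401 ± 59.4. In miKO-Sham *Aldoa* at 511 ± 12.9 and *Eno1* at 467 ± 46.7 led, and in miKO-tFCI *Aldoa* at 671 ± 134 and *Pkm* at 662 ± 9.54. *Egln3* and *Eno2* were at the low end in all 4 groups, and *Adm* with them in the Sham groups. The order near the top depends on the length used. The principal transcript has 2432 bases for *Pkm* and 1304 for *Ldhb*, and the union of all exons 5001 and 1570. With the union as the length, *Ldhb* was above *Ldha* in WT-tFCI, at 55.4% and 44.6% of their sum. The full order was not recomputed on that length.

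*Slc2a1* encodes GLUT1, the glucose transporter of many cell types and of brain endothelium, and it rose after tFCI in both genotypes. It had 54.8, 58.1 and 57.2 CPM in WT-Sham, 38.6, 41.1 and 27.8 in miKO-Sham, 125, 95.4 and 97.1 in WT-tFCI and 179, 87.3 and 97.4 in miKO-tFCI, replicates 1, 2 and 3 being given in this order here and below. All tFCI libraries were above all Sham libraries, and miKO-tFCI replicate 1 stood well above the others. The log2FC was 0.88 ± 0.19 (adjusted p = 0.00246) in WT and 1.71 ± 0.20 (adjusted p = 1.29e-05) in miKO, and within batch 1 and batch 2 alone it was 1.19 and 0.74 in WT and 2.21 and 1.44 in miKO. In Sham mice *Slc2a1* fell with the genotype (-0.68 ± 0.20, adjusted p = 0.0262), a call lost when WT-Sham replicate 2 or 3, or miKO-Sham replicate 1 or 3, was left out (log2FC -0.63 to -0.56, adjusted p 0.088 to 0.1) and without the batch term (adjusted p = 0.105). The endothelial markers, which tFCI also raised, stood at 260.2 CPM in WT-tFCI replicate 1 and 491 in miKO-tFCI replicate 1, the libraries with the highest *Slc2a1* of their groups, and without miKO-tFCI replicate 1 the miKO log2FC was 1.38 (adjusted p = 2.67e-05). Astrocyte and dendritic cell markers also peaked in those replicate 1 libraries, and the part of these cells was not tested. *Slc2a3*, the gene of the high-affinity transporter GLUT3, was low, with 6.61, 4.93 and 6.26 CPM in WT-Sham, 6.11, 4.58 and 3.71 in miKO-Sham, 8.5, 7.27 and 10.6 in WT-tFCI and 8.05, 10.7 and 9.27 in miKO-tFCI. It passed in miKO (0.97 ± 0.28, adjusted p = 0.0134) but not in WT (0.57 ± 0.28, adjusted p = 0.118), and the interaction, 0.40 ± 0.40 (adjusted p = 0.674), did not separate the genotypes. That *Slc2a3* call was lost without miKO-Sham replicate 3 (0.80, adjusted p = 0.0604) or miKO-tFCI replicate 2 (0.84, adjusted p = 0.0505), or when only the groups compared were fitted (adjusted p = 0.0533).

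The 3 hexokinases, which trap glucose in the cell as its phosphate, did not move together. *Hk2*, the inducible enzyme and a textbook HIF target, fell after tFCI: it had 280.4, 187 and 174 CPM in WT-Sham, 253, 257 and 228 in miKO-Sham, 165, 159 and 142 in WT-tFCI and 112, 125 and 101 in miKO-tFCI. The miKO-tFCI libraries were the lowest and did not overlap any other group. *Hk2* fell by 1.13 ± 0.15 on the log2 scale in miKO (adjusted p = 5.54e-05), and the WT change of -0.44 ± 0.15 (adjusted p = 0.0324) passed but was no DEG. The WT call was lost without WT-Sham replicate 1, the highest library (log2FC -0.27, adjusted p = 0.188), without WT-tFCI replicate 1 (-0.40, adjusted p = 0.121) or replicate 3 (-0.46, adjusted p = 0.0748), without the batch term (adjusted p = 0.059) and in batch 2 alone (-0.26, adjusted p = 0.21). *Hk2* was also below WT in miKO-tFCI in every library, at log2FC -0.46 ± 0.15 (adjusted p = 0.0717), which did not pass, and the interaction was -0.68 ± 0.22 (adjusted p = 0.105). *Hk1*, the broadly expressed enzyme, had 22.2, 29.0 and 34.7 CPM in WT-Sham, 17.1, 21.6 and 22.4 in miKO-Sham, 32.7, 24.9 and 20.1 in WT-tFCI and 42.4, 29.2 and 26.3 in miKO-tFCI. *Hk3*, the hexokinase of myeloid cells, had 106, 162 and 169 CPM in WT-Sham, 107, 107 and 152 in miKO-Sham, 133, 140.5 and 149 in WT-tFCI and 128, 308 and 249.8 in miKO-tFCI. After tFCI *Hk1* rose in miKO (0.67 ± 0.23, adjusted p = 0.0312), as did *Hk3* (0.85 ± 0.20, adjusted p = 0.00302), and neither passed in WT (-0.16 ± 0.23 and -0.01 ± 0.19, adjusted p = 0.606 and 0.979). The *Hk1* call was lost without miKO-tFCI replicate 1 (0.37, adjusted p = 0.225) or miKO-Sham replicate 1 (0.47, adjusted p = 0.178), and *Hk3* rose by 0.26 on the log2 scale in batch 1 against 1.12 in batch 2, its groups overlapping. In the miKO-tFCI libraries, in replicate order, the monocyte and macrophage markers summed to 1183, 680.9 and 888.3 CPM and the border-associated macrophage markers to 324.4, 600.7 and 624.7 CPM. Neutrophil markers summed to 1159, 1391 and 1393 CPM there, and microglial markers to 8223, 12950 and 15760 CPM. The part of these cells in the *Hk3* values was not tested.

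Of the 6 genes from glucose phosphate to the triose phosphates, 4 rose as DEGs in WT after tFCI and 4 in miKO (20.9% and 21.9% of all genes). *Tpi1*, triose phosphate isomerase, had 159, 121 and 110.3 CPM in WT-Sham, 218, 220 and 164 in miKO-Sham, 431, 352 and 312 in WT-tFCI and 505, 353 and 342 in miKO-tFCI, with all tFCI libraries above all Sham libraries, and rose in WT (1.49 ± 0.14, adjusted p = 1.75e-06) and miKO (0.97 ± 0.14, adjusted p = 8.53e-05). *Gpi1*, glucose phosphate isomerase, had 135, 94.1 and 95.6 CPM in WT-Sham, 166, 145 and 114 in miKO-Sham, 248, 186 and 191 in WT-tFCI and 304, 201 and 169 in miKO-tFCI, and rose in WT (0.95 ± 0.14, adjusted p = 8.2e-05) and miKO (0.64 ± 0.14, adjusted p = 0.00166). *Aldoa*, the aldolase that splits the sugar bisphosphate, had 418, 420.4 and 401 CPM in WT-Sham, 785, 782 and 749.5 in miKO-Sham, 870.1, 717 and 674 in WT-tFCI and 1246, 909 and 886 in miKO-tFCI. The 3 miKO-Sham values of *Aldoa* lay inside the range of WT-tFCI and well above WT-Sham. *Aldoa* rose with tFCI in WT (0.86 ± 0.14, adjusted p = 0.0002) and with genotype in Sham (0.90 ± 0.14, adjusted p = 0.000269), and it passed with tFCI in miKO without being a DEG (0.38 ± 0.14, adjusted p = 0.0356). The last call was lost without any WT-Sham or WT-tFCI library, without miKO-Sham replicate 1 or 3 and without miKO-tFCI replicate 1 or 2 (log2FC 0.22 to 0.41, adjusted p 0.0515 to 0.193). The *Aldoa* interaction of -0.48 ± 0.19 (adjusted p = 0.199) did not pass.

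The 3 phosphofructokinase genes, whose enzyme commits sugar to glycolysis, differed from each other. *Pfkl*, the liver-type gene and the main one here, had 102, 161 and 178 CPM in WT-Sham, 98.0, 89.3 and 143 in miKO-Sham, 144, 136 and 140 in WT-tFCI and 101, 114 and 124 in miKO-tFCI, and passed in no comparison (log2FC between -0.39 and 0.04 in the 4 pairwise tests). *Pfkp*, the platelet-type gene, had 11.3, 7.39 and 7.08 CPM in WT-Sham, 12.4, 13.9 and 15.6 in miKO-Sham, 43.2, 18.7 and 15.8 in WT-tFCI and 112, 25.5 and 42.3 in miKO-tFCI. The *Pfkp* values overlapped between no Sham and tFCI group of 1 genotype, and it rose in WT (1.50 ± 0.33, adjusted p = 0.00241) and miKO (1.84 ± 0.32, adjusted p = 0.000395). It was also higher in miKO-tFCI than WT-tFCI (1.14 ± 0.30, adjusted p = 0.0274) although these libraries overlapped, and that call was lost without miKO-tFCI replicate 1 (0.68, adjusted p = 0.202), miKO-tFCI replicate 3 (1.15, adjusted p = 0.0686) or any WT-tFCI library (1.04 to 1.29, adjusted p 0.0553 to 0.121), and without the batch term (adjusted p = 0.186). Endothelial markers peaked in that same miKO-tFCI replicate 1, at 491 CPM. Astrocyte markers (598.8 CPM) and dendritic cell markers (342.9 CPM) peaked there too, and the part of these cells was not tested. *Pfkm*, the muscle-type gene, had 9.26, 6.39 and 4.92 CPM in WT-Sham, 6.53, 4.86 and 8.45 in miKO-Sham, 14.0, 9.0 and 9.14 in WT-tFCI and 20.6, 7.16 and 11.6 in miKO-tFCI, and passed in miKO after tFCI (0.89 ± 0.30, adjusted p = 0.0276) with overlapping libraries. Its call was lost without miKO-Sham replicate 1 or 2 or miKO-tFCI replicate 1 or 3 (0.60 to 0.80, adjusted p 0.0746 to 0.184).

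*Pfkfb3* and *Pfkfb4* encode enzymes that set the level of the sugar bisphosphate that activates phosphofructokinase, and neither was higher after tFCI by the test. *Pfkfb4* had 72.6, 100.1 and 91.9 CPM in WT-Sham, 114, 117 and 138 in miKO-Sham, 40.6, 69.1 and 65.9 in WT-tFCI and 36.2, 70.6 and 71.2 in miKO-tFCI, and fell in WT (-0.61 ± 0.16, adjusted p = 0.00697) and miKO (-1.11 ± 0.16, adjusted p = 8.5e-05). The WT call was lost without the batch term (-0.59, adjusted p = 0.0948). *Pfkfb3* had 162, 174 and 152 CPM in WT-Sham, 241, 234 and 248 in miKO-Sham, 186, 223 and 211 in WT-tFCI and 108, 204 and 196 in miKO-tFCI, so that its miKO-Sham libraries were the highest. *Pfkfb3* passed as higher in miKO-Sham (0.57 ± 0.17, adjusted p = 0.0285) and as lower after tFCI in miKO (-0.54 ± 0.17, adjusted p = 0.0179), whereas the WT change was 0.34 ± 0.17 (adjusted p = 0.127). Its interaction, -0.88 ± 0.24 (adjusted p = 0.0539), just missed the threshold. The genotype call of *Pfkfb3* was lost without WT-Sham replicate 2 or 3 or miKO-Sham replicate 1 (0.44 to 0.55, adjusted p 0.0981 to 0.144), and its fall in miKO without replicate 1 of miKO-Sham (-0.43, adjusted p = 0.096) or of miKO-tFCI (-0.34, adjusted p = 0.0713). *Pfkfb4* also passed as higher in miKO-Sham (0.50 ± 0.16, adjusted p = 0.0393), a call lost without any WT-Sham or WT-tFCI library, miKO-Sham replicate 1 or 3 or miKO-tFCI replicate 3 (0.31 to 0.56, adjusted p 0.0522 to 0.24) and without the batch term (adjusted p = 0.268).

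The genes from glyceraldehyde phosphate to pyruvate had a median log2FC of 1.71 in WT and 1.62 in miKO after tFCI, with 5 of 6 higher DEGs in WT and 4 of 6 in miKO (20.9% and 21.9% of all genes). *Pkm*, pyruvate kinase, lies at chr9:59656368-59679375 on the plus strand. It had 296, 278 and 278 CPM in WT-Sham, 504, 480.4 and 421 in miKO-Sham, 1341, 1196 and 1201 in WT-tFCI and 1637, 1606 and 1591 in miKO-tFCI. The 4 groups did not overlap, WT-Sham being lowest, then miKO-Sham, then WT-tFCI, with miKO-tFCI highest. Its rise after tFCI was 4.38-fold in WT (2.13 ± 0.13, adjusted p = 1.72e-08) and 3.44-fold in miKO (1.78 ± 0.13, adjusted p = 1.5e-07), and it was 2.18 and 2.11 on the log2 scale within batches 1 and 2 in WT. In Sham mice *Pkm* was higher in miKO (0.72 ± 0.12, adjusted p = 0.000751), and after tFCI its difference of 0.37 ± 0.12 (adjusted p = 0.0665) did not pass.

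*Pgk1*, phosphoglycerate kinase, which makes the first ATP of the pathway, had 34.9, 36.4 and 38.4 CPM in WT-Sham, 74.8, 57.9 and 67.0 in miKO-Sham, 145, 122 and 110.3 in WT-tFCI and 181, 177 and 189.6 in miKO-tFCI. Its groups stood in the same order as those of *Pkm*, again without overlap. *Pgk1* rose after tFCI in WT (1.77 ± 0.14, adjusted p = 2.09e-07) and miKO (1.46 ± 0.13, adjusted p = 1.51e-06), and was higher in miKO than WT in Sham (0.86 ± 0.14, adjusted p = 0.000389) and after tFCI (0.54 ± 0.13, adjusted p = 0.0164). The last call was lost without WT-tFCI replicate 2 or 3 or miKO-tFCI replicate 3 (0.47 to 0.55, adjusted p 0.057 to 0.111). *Pgam1*, phosphoglycerate mutase, had 41.8, 51.9 and 56.4 CPM in WT-Sham, 68.7, 54.1 and 65.3 in miKO-Sham, 161, 152 and 153 in WT-tFCI and 210.1, 205 and 257 in miKO-tFCI. It rose in WT (1.64 ± 0.15, adjusted p = 1.29e-06) and miKO (1.83 ± 0.15, adjusted p = 6.15e-07) and was higher in miKO-tFCI than WT-tFCI in every library (0.52 ± 0.15, adjusted p = 0.034). Leaving out any WT-tFCI library, miKO-tFCI replicate 1 or 3 or WT-Sham replicate 2 ended that *Pgam1* call (0.42 to 0.54, adjusted p 0.0562 to 0.142), as did leaving out the batch term (adjusted p = 0.0651).

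*Eno1*, the main enolase (chr4:150236721-150248879, plus strand), was the 1 member that the interaction called. It had 319, 321 and 312 CPM in WT-Sham, 1005, 997 and 837 in miKO-Sham, 881, 744 and 703 in WT-tFCI and 1307, 962 and 988 in miKO-tFCI. All miKO-Sham libraries were above all WT-Sham libraries and lay within the WT-tFCI range or over it, and miKO-tFCI overlapped miKO-Sham. *Eno1* rose 2.98-fold in miKO-Sham vs. WT-Sham (1.57 ± 0.14, adjusted p = 1.98e-06) and rose after tFCI in WT (1.28 ± 0.14, adjusted p = 5.41e-06). In miKO the difference after tFCI was 0.19 ± 0.13 (adjusted p = 0.277), which did not pass. The difference between these surgery effects, the interaction, was -1.09 ± 0.19 (adjusted p = 0.00465), and it was -1.09 in batch 1 and -1.10 in batch 2. It passed under all 23 alternatives computed, between -1.20 and -1.01, with a largest adjusted p of 0.0264, and it was -1.01 (adjusted p = 0.00278) with the miKO-Sham replicate 2 library placed in batch 1 and -1.03 (adjusted p = 0.00963) with miKO-Sham replicates 1 and 2 summed to 1 library, 2 alternatives chosen after seeing the data. The miKO-tFCI vs. WT-tFCI difference of *Eno1* (0.48 ± 0.13, adjusted p = 0.0356) passed but was lost without any WT-tFCI library, any miKO-tFCI library or WT-Sham replicate 2 or 3 (0.36 to 0.53, adjusted p 0.0522 to 0.167). Near-identical copies of *Eno1* held 3.59% to 5.28% as many counts as the gene, and with them added the interaction was -1.08 (adjusted p = 0.0045). *Eno2*, the neuronal enolase, had only 2 to 15 counts in the Sham libraries, and 1.80, 0.560 and 0.410 CPM in WT-Sham, 0.278, 1.11 and 0.512 in miKO-Sham, 3.83, 3.58 and 3.17 in WT-tFCI and 8.26, 3.02 and 4.57 in miKO-tFCI. It rose in WT (2.05 ± 0.56, adjusted p = 0.0096) and miKO (2.91 ± 0.59, adjusted p = 0.00124), with 95% intervals of 0.86 to 3.24 and 1.65 to 4.18, the WT call being lost without WT-Sham replicate 3 (1.71, adjusted p = 0.0522).

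*Gapdh*, glyceraldehyde phosphate dehydrogenase (chr6:125161715-125166467, minus strand), did not follow its neighbours, and its counts were not a secure measure of the gene. It had 40.6, 38.0 and 31.7 CPM in WT-Sham, 86.6, 36.2 and 31.8 in miKO-Sham, 26.0, 41.8 and 40.7 in WT-tFCI and 18.2, 31.8 and 27.3 in miKO-tFCI, a level per kilobase of 25.5 ± 6.22 in WT-tFCI against 499 ± 68.3 for *Aldoa*. The genome annotation held 92 genes at least 95% identical to *Gapdh* over at least 300 bases, and their counts together were 73.9% to 784% of those of *Gapdh* itself. In WT-Sham the gene had 338, 339 and 309 counts and its copies 432, 470 and 409, whereas in miKO-tFCI the gene had 176, 253 and 221 and the copies 1379, 1165 and 1114. On its own counts *Gapdh* differed by -0.01 ± 0.32 (adjusted p = 0.986) in WT after tFCI and by -0.97 ± 0.33 (adjusted p = 0.0297) in miKO. With the counts of the copies added, which was decided on after seeing the data, the levels were 93.2, 92.4 and 75.0 CPM in WT-Sham, 151, 106 and 89.5 in miKO-Sham, 146, 167 and 166 in WT-tFCI and 159, 177 and 162 in miKO-tFCI. The log2FC after tFCI was then 0.89 in WT (adjusted p = 7.34e-04) and 0.54 in miKO (adjusted p = 0.0166), the opposite sign to the gene's own counts in both. Without miKO-Sham replicate 1, where *Gapdh* had 86.6 CPM, its own miKO change was -0.31 (adjusted p = 0.313), and without miKO-tFCI replicate 1 it was -0.65 (adjusted p = 0.18). No direction is therefore given for *Gapdh*.

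**Figure D3:**
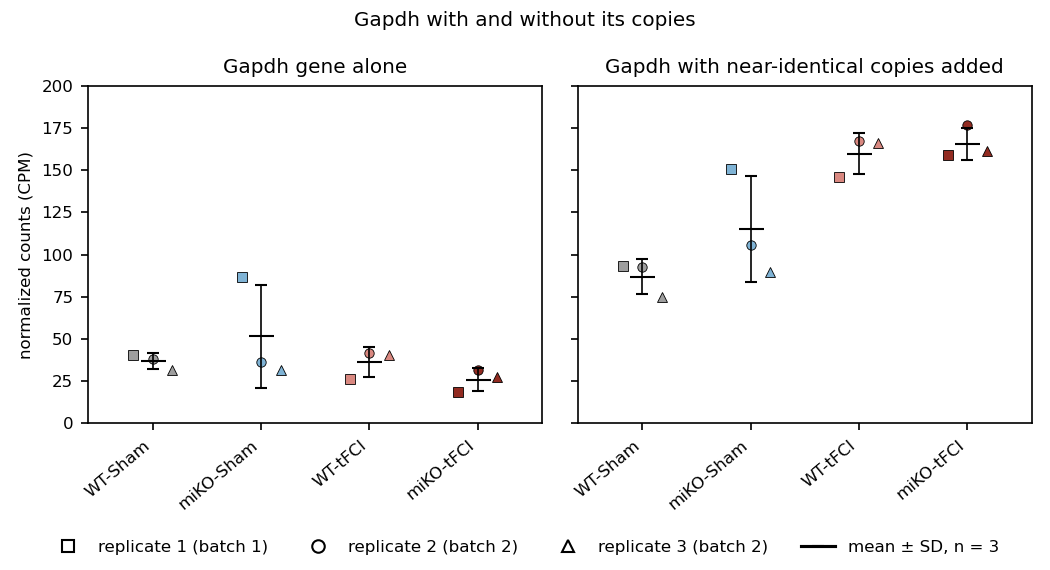
CPM of *Gapdh* by its own counts and with the counts of its 92 near-identical copies added, in each of the 12 libraries on axes from 0 to 200. Symbols are replicates and bars the mean ± SD. With the copies added the WT-tFCI libraries (146 to 167) were all above those of WT-Sham (75.0 to 93.2), which was not so for the gene's own counts.

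*Ldha*, the subunit of lactate dehydrogenase typical of glycolytic tissue (chr7:46841475-46855627, plus strand), had 294, 284 and 246 CPM in WT-Sham, 284, 281 and 301 in miKO-Sham, 921, 887 and 838 in WT-tFCI and 1149, 818 and 889.7 in miKO-tFCI. All 6 tFCI libraries were far above all 6 Sham libraries, and the genotypes overlapped at both. *Ldha* rose 3.22-fold in WT (1.69 ± 0.14, adjusted p = 4.11e-07) and 3.27-fold in miKO (1.71 ± 0.14, adjusted p = 5.61e-07), within batches by 1.65 and 1.71 on the log2 scale in WT and by 2.01 and 1.55 in miKO. Its genotype differences were 0.08 ± 0.14 (adjusted p = 0.754) in Sham and 0.10 ± 0.13 (adjusted p = 0.678) after tFCI, with 95% intervals of -0.21 to 0.37 and -0.19 to 0.39. *Ldhb*, the subunit typical of oxidative tissue, had 578, 455 and 472 CPM in WT-Sham, 436, 449 and 535 in miKO-Sham, 607, 507 and 455 in WT-tFCI and 498, 282 and 270.3 in miKO-tFCI. Its change in WT after tFCI was 0.06 ± 0.17 (adjusted p = 0.816), and it passed as lower in miKO after tFCI (-0.49 ± 0.18, adjusted p = 0.0363) and in miKO-tFCI vs. WT-tFCI (-0.61 ± 0.18, adjusted p = 0.0412), with overlapping libraries. The miKO log2FC was 0.19 in batch 1 and -0.83 in batch 2, opposite in sign, and the call was lost without miKO-Sham replicate 2 or 3 or miKO-tFCI replicate 2 or 3 (-0.49 to -0.34, adjusted p 0.0601 to 0.147). The genotype call of *Ldhb* was lost without any WT-tFCI library, miKO-tFCI replicate 2 or 3 or WT-Sham replicate 2 or 3 (-0.66 to -0.50, adjusted p 0.0542 to 0.162).

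The 2 monocarboxylate transporters, which carry lactate across the membrane, both rose with tFCI. *Slc16a3* encodes MCT4, known for lactate export from glycolytic cells, and had 46.2, 47.7 and 42.3 CPM in WT-Sham, 33.9, 38.2 and 38.7 in miKO-Sham, 103, 96.0 and 112 in WT-tFCI and 80.5, 65.2 and 69.0 in miKO-tFCI. Its tFCI libraries were all above the Sham libraries, and those of miKO-tFCI were all below those of WT-tFCI. It rose in WT (1.19 ± 0.13, adjusted p = 6.51e-06) and in miKO (0.95 ± 0.13, adjusted p = 5.81e-05), and was lower in miKO-tFCI vs. WT-tFCI (-0.54 ± 0.13, adjusted p = 0.016), a call lost without WT-tFCI replicate 3 or miKO-tFCI replicate 2 or 3 (-0.51 to -0.46, adjusted p 0.061 to 0.111). *Slc16a1* encodes MCT1, found in many cells including brain endothelium, and had 12.1, 13.4 and 13.4 CPM in WT-Sham, 11.8, 8.88 and 14.0 in miKO-Sham, 25.5, 24.9 and 22.8 in WT-tFCI and 44.2, 24.1 and 33.9 in miKO-tFCI. It rose in WT (0.90 ± 0.21, adjusted p = 0.00381) and miKO (1.54 ± 0.22, adjusted p = 6.35e-05), and its highest library, miKO-tFCI replicate 1, was that with 491 CPM of endothelial markers. Astrocyte and dendritic cell markers peaked in the same library, and the part of these cells was not tested. That library was the highest of its group for 19 of the 33 members.

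*Pdk1*, a textbook HIF target, was lower and not higher after tFCI, with 77.3, 85.1 and 92.8 CPM in WT-Sham, 54.7, 57.0 and 61.5 in miKO-Sham, 66.7, 63.9 and 69.2 in WT-tFCI and 37.3, 45.4 and 54.1 in miKO-tFCI. Its surgery changes in WT (-0.35 ± 0.13, adjusted p = 0.0433) and miKO (-0.35 ± 0.13, adjusted p = 0.0436) passed without being DEGs. The WT call was lost without WT-Sham replicate 1 or 3, WT-tFCI replicate 2 or 3, miKO-Sham replicate 1 or 3 or miKO-tFCI replicate 2 (-0.40 to -0.34, adjusted p 0.0539 to 0.105), and the miKO call without replicate 1 or 3 of miKO-Sham or replicate 1 or 2 of miKO-tFCI (-0.34 to -0.29, adjusted p 0.101 to 0.134). All miKO libraries were also below the WT libraries with the same surgery, and *Pdk1* passed as lower in Sham (-0.56 ± 0.13, adjusted p = 0.0071) and after tFCI (-0.56 ± 0.13, adjusted p = 0.0149). The Sham call passed under every alternative computed, and the tFCI call was lost without WT-tFCI replicate 1 or 3 or miKO-tFCI replicate 1 or 2 (-0.56 to -0.48, adjusted p 0.0506 to 0.0631). *Pdk3* had 18.3, 12.9 and 15.2 CPM in WT-Sham, 13.6, 14.3 and 19.9 in miKO-Sham, 21.8, 28.2 and 31.1 in WT-tFCI and 31.1, 24.4 and 29.8 in miKO-tFCI, and rose in WT (0.80 ± 0.21, adjusted p = 0.00653) and miKO (0.84 ± 0.21, adjusted p = 0.00466). Without WT-Sham replicate 2 or WT-tFCI replicate 3 the WT rise was 0.63 and 0.65 (adjusted p = 0.0605 and 0.0535).

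*Hif1a* (chr12:73901375-73947530, plus strand), the regulated alpha subunit, had 69.6, 63.6 and 77.5 CPM in WT-Sham, 55.3, 59.0 and 65.1 in miKO-Sham, 148, 133 and 138 in WT-tFCI and 119, 126 and 169 in miKO-tFCI. The tFCI libraries were all above the Sham libraries. *Hif1a* rose in WT (0.99 ± 0.15, adjusted p = 0.000109) and in miKO (1.20 ± 0.15, adjusted p = 2.17e-05), and its genotype differences did not pass (-0.23 ± 0.15 in Sham and -0.02 ± 0.14 after tFCI, adjusted p = 0.31 and 0.936). *Egln1*, the main oxygen-sensing hydroxylase PHD2, had 36.7, 29.7 and 30.0 CPM in WT-Sham, 29.6, 26.2 and 25.4 in miKO-Sham, 40.3, 26.9 and 30.6 in WT-tFCI and 40.6, 27.0 and 25.1 in miKO-tFCI, and passed in no comparison. *Egln3*, the hydroxylase PHD3 and itself a known HIF target, had few counts: 6, 3 and 1 in WT-Sham, 16, 8 and 10 in miKO-Sham, 25, 10 and 8 in WT-tFCI and 62, 12 and 22 in miKO-tFCI. It rose in WT after tFCI (2.13 ± 0.57, adjusted p = 0.00861, 95% interval 0.91 to 3.34) and with genotype in Sham (2.07 ± 0.58, adjusted p = 0.0212, 95% interval 0.84 to 3.31). The *Egln3* genotype call was lost without WT-Sham replicate 1 or 3 or miKO-Sham replicate 3 (1.76 to 2.22, adjusted p 0.0556 to 0.0928), and with miKO-Sham replicate 2 placed in batch 1 (1.70, adjusted p = 0.0743) or summed with replicate 1 (1.84, adjusted p = 0.0809). Its WT surgery call was lost without the batch term (adjusted p = 0.0536) and in batch 2 alone (adjusted p = 0.0629).

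*Adm*, adrenomedullin, a vasodilator peptide of endothelial and myeloid cells (chr7:110627661-110629820, plus strand), had the largest log2FC of the 33 in both surgery comparisons. It had 11, 5 and 5 counts in WT-Sham and 2, 2 and 4 in miKO-Sham, against 124, 40 and 50 in WT-tFCI and 281, 87 and 137 in miKO-tFCI, which is 1.32, 0.560 and 0.513 CPM in WT-Sham, 0.278, 0.277 and 0.512 in miKO-Sham, 14.8, 4.62 and 6.09 in WT-tFCI and 29.0, 10.9 and 16.9 in miKO-tFCI. It rose 10.2-fold in WT (3.35 ± 0.37, adjusted p = 8.57e-06, 95% interval of the log2FC 2.55 to 4.15), and by 5.62 ± 0.43 (adjusted p = 3.05e-07) in miKO with an interval of 4.71 to 6.53 that rests on 2 to 4 counts per Sham library. *Adm* was also higher in miKO-tFCI vs. WT-tFCI (1.22 ± 0.29, adjusted p = 0.0164) with overlapping libraries, a call lost without WT-tFCI replicate 2 or 3 or miKO-tFCI replicate 1 or 3 (1.04 to 1.26, adjusted p 0.0622 to 0.0983) and without the batch term (1.16, adjusted p = 0.203). Its interaction was 2.27 ± 0.62 (adjusted p = 0.0593), which did not pass. In both tFCI groups replicate 1 had the most *Adm* and the highest endothelial sum, 260.2 and 491 CPM. Its astrocyte and dendritic cell sums were also the highest of its group, and the part of those cells was not tested.

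*Ero1l*, an oxidase of the endoplasmic reticulum that serves disulfide formation, had 9.62, 10.6 and 11.4 CPM in WT-Sham, 12.1, 11.4 and 12.9 in miKO-Sham, 19.4, 23.9 and 28.0 in WT-tFCI and 18.9, 21.1 and 24.3 in miKO-tFCI, and rose in WT (1.16 ± 0.17, adjusted p = 0.0001) and miKO (0.81 ± 0.17, adjusted p = 0.00151) with no overlap of tFCI and Sham. *P4ha1*, a subunit of the collagen prolyl hydroxylase and a known HIF target, went the other way, with 306, 275 and 319 CPM in WT-Sham, 277, 301 and 261 in miKO-Sham, 198, 169.8 and 171 in WT-tFCI and 141, 188 and 214 in miKO-tFCI. All tFCI libraries of *P4ha1* were below all Sham libraries, and it fell in WT (-0.74 ± 0.15, adjusted p = 0.00176) and miKO (-0.63 ± 0.15, adjusted p = 0.00449) under every alternative computed. *Bnip3*, a mitophagy receptor, had 33.2, 30.9 and 37.7 CPM in WT-Sham, 25.0, 31.1 and 44.6 in miKO-Sham, 44.0, 36.4 and 33.9 in WT-tFCI and 47.4, 25.4 and 56.6 in miKO-tFCI, and *Ankrd37*, a small ankyrin-repeat protein, 3.49, 2.69 and 3.69 CPM in WT-Sham, 2.50, 4.30 and 2.31 in miKO-Sham, 6.34, 4.16 and 1.34 in WT-tFCI and 5.68, 4.02 and 3.21 in miKO-tFCI. Neither passed in any comparison, and the 95% interval of the change after tFCI in WT was -0.38 to 0.72 for *Bnip3* and -0.79 to 1.18 for *Ankrd37*, wide enough to hold a DEG-sized change in either direction for *Ankrd37*.

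**Figure D4:**
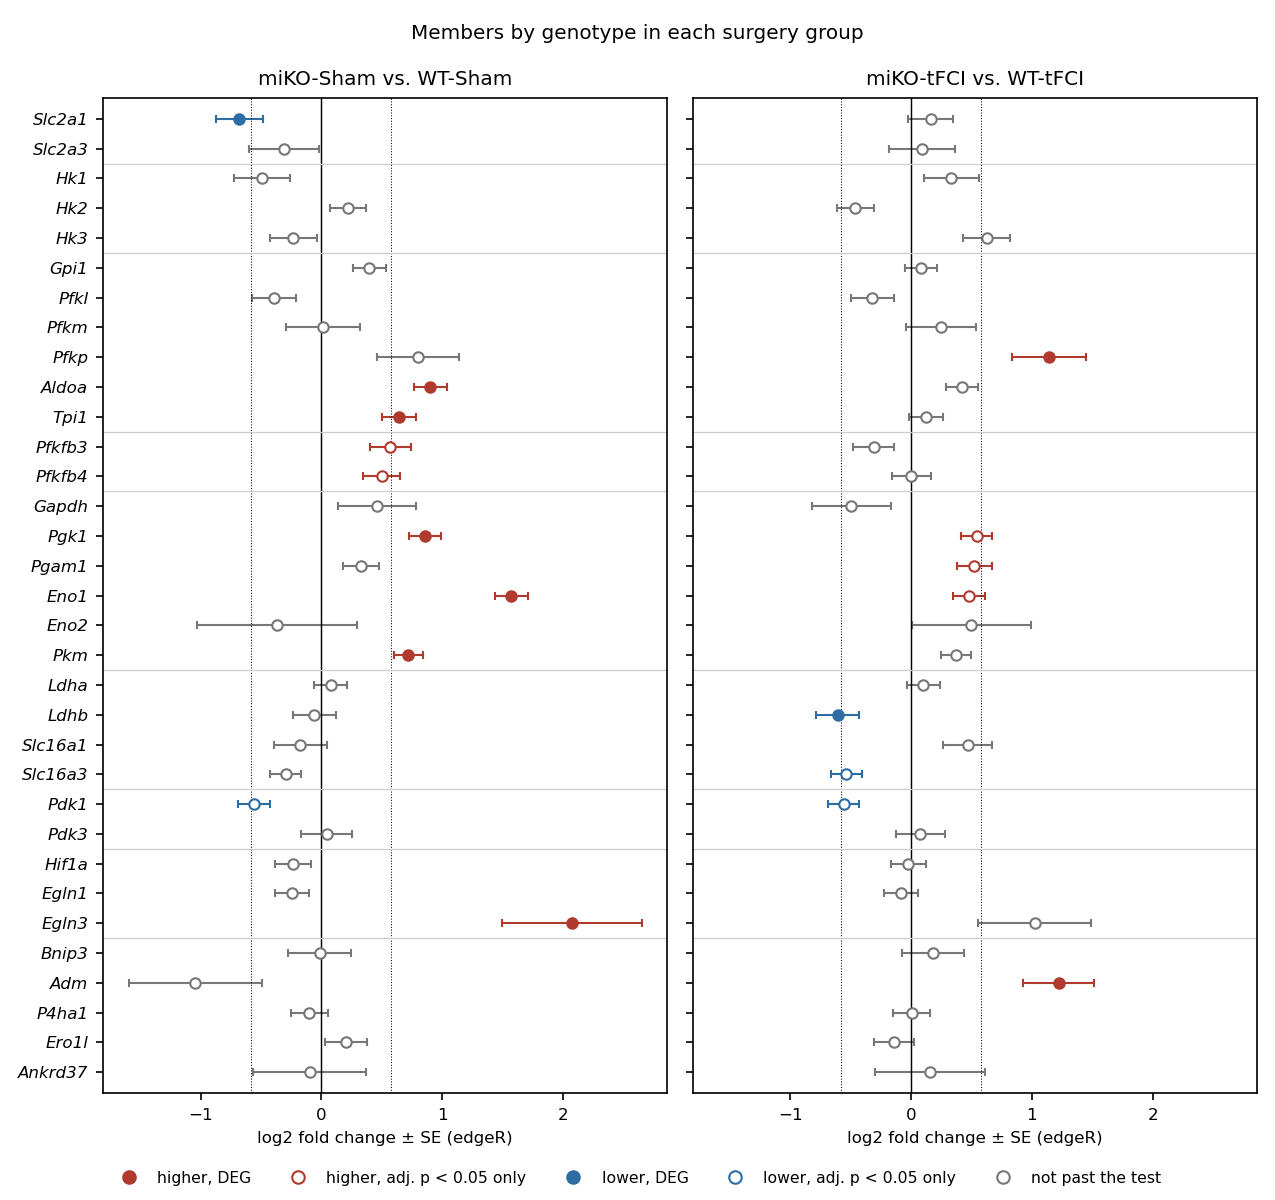
Log2FC of the 33 members between genotypes in Sham mice and after tFCI, with bars of 1 SE from edgeR and the symbols of the plot of surgery effects. *Eno1*, at 1.57 in Sham and 0.48 after tFCI, and *Pdk1*, at -0.56 in each, passed in both, as did *Pgk1*.

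In Sham mice the higher DEGs were *Aldoa*, *Tpi1* (0.64 ± 0.14, adjusted p = 0.00486), *Pgk1*, *Eno1*, *Pkm* and *Egln3*, so that 5 of the 6 were enzymes between the sugar bisphosphate and pyruvate, and *Slc2a1* was the lower DEG. The *Tpi1* call was lost without the batch term (0.62, adjusted p = 0.065). Neither *Ldha* nor the monocarboxylate transporters nor *Hif1a* passed. *Aldoa*, *Pgk1*, *Eno1*, *Pkm* and *Pdk1* were the 5 of 10 passing members whose Sham call was kept under every alternative computed. After tFCI 8 members passed, *Pfkp*, *Pgk1*, *Pgam1*, *Eno1* and *Adm* higher and *Ldhb*, *Slc16a3* and *Pdk1* lower, and each of these 8 calls was lost under at least 1 alternative. The genotype comparisons share no library. *Eno1* and *Pgk1* passed as higher in both, 25% of the 8 in Sham and 40% of the 5 after tFCI, and *Pdk1* as lower in both, 50% of 2 and 33.3% of 3. The overlap over all genes was not computed for these comparisons either.

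The balance between genes that encode one enzyme or carrier was also set out by group. As a share of the summed CPM per kilobase, *Ldha* made up 28.9% ± 2.37 (SD, n = 3) of the lactate dehydrogenase transcripts in WT-Sham and 31.1% ± 1.62 in miKO-Sham, then 55.6% ± 2.49 in WT-tFCI and 67.4% ± 3.98 in miKO-tFCI. The tFCI groups did not overlap the Sham groups on this share. The share of *Hk2* among the 3 hexokinases was 42.6% ± 12.4 in WT-Sham and 51.2% ± 6.30 in miKO-Sham against 35.8% ± 2.22 in WT-tFCI and 21.5% ± 6.16 in miKO-tFCI, and *Hk3* made up 69.1% ± 11.5 in the last group. *Pdk3* was 30.8% ± 5.17 of *Pdk1* and *Pdk3* in WT-Sham and 49.6% ± 4.44 in WT-tFCI, and 40% ± 3.59 in miKO-Sham and 60.5% ± 5.79 in miKO-tFCI. *Slc16a3* held 78.1% ± 1.66, 76.6% ± 4.18 and 81.2% ± 1.94 of the transporter pair in WT-Sham, miKO-Sham and WT-tFCI and 68.7% ± 4.29 in miKO-tFCI. *Pfkp* was 5.11% ± 2.68 of the phosphofructokinase transcripts in WT-Sham and 27.1% ± 15.0 in miKO-tFCI, where its 3 libraries ran from 15.7% to 44.0%. *Eno1* was over 99% of *Eno1* and *Eno2* in every group, and *Slc2a1* was 92.1% ± 1.29 of *Slc2a1* and *Slc2a3* in WT-Sham, 90.1% ± 1.56 in miKO-Sham, 93.5% ± 1.56 in WT-tFCI and 93.3% ± 2.84 in miKO-tFCI. These shares were computed with the length of 1 transcript per gene and were not tested. With the union of all exons as the length, a choice made after seeing the data, the *Ldha* share was 20.7% in WT-Sham and 22.5% in miKO-Sham, and 44.6% and 57.1% after tFCI in WT and miKO, lower in each group but in the same order, and the mean *Pfkp* share was 2.80% in WT-Sham and 16.5% in miKO-tFCI.

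**Figure D5:**
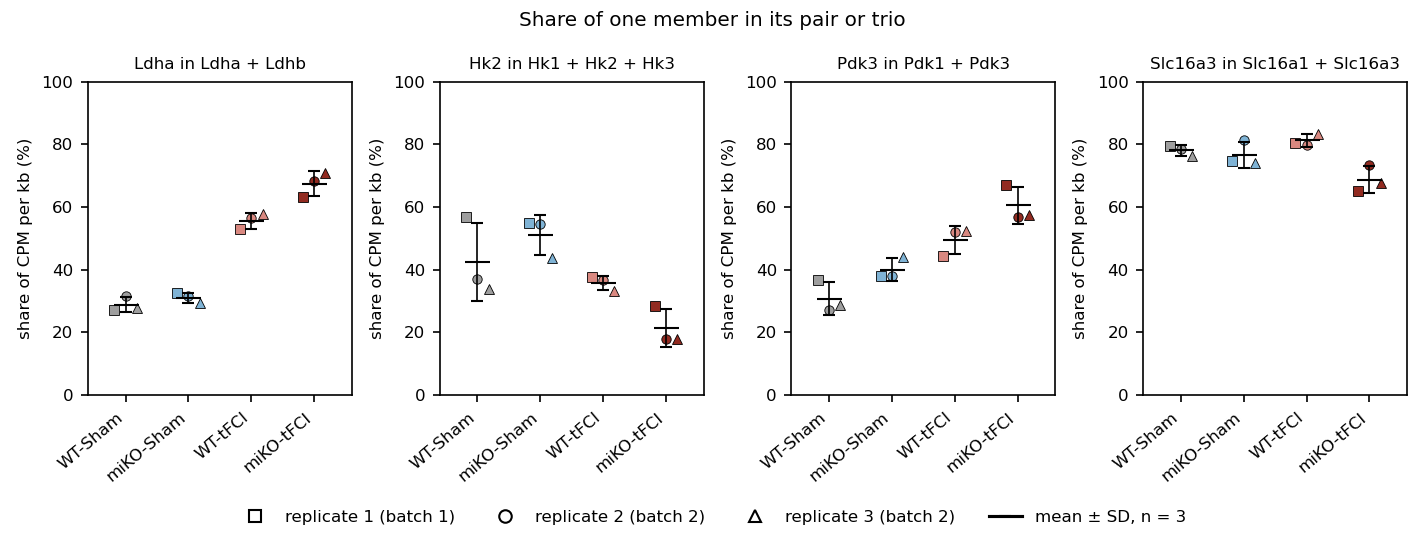
Share of *Ldha*, *Hk2*, *Pdk3* and *Slc16a3* in the summed CPM per kilobase of their enzyme or transporter, in percent, for each of the 12 libraries, with the mean ± SD of 3. The *Ldha* share was 28.9% and 31.1% in the Sham groups and 55.6% and 67.4% in the tFCI groups.

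Some counts carry a further limit. The libraries do not mark strand, and *Bnip3*, *Pfkp*, *Ankrd37*, *Hif1a*, *Hk1*, *Slc2a1* and *Gapdh* share 68 to 748 exonic bases with a gene of the opposite strand, and *Hk3*, *Tpi1*, *Aldoa* and *Pfkm* 18 to 34, whose reads cannot be told apart from theirs in the overlap. *Pkm*, *Pfkm* and *Hif1a* share 767, 341 and 148 exonic bases with a gene of the same strand.

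Other genes of these pathways, taken from lists that were also set by name, are given by count. Of 45 further genes of glucose and pyruvate use, 36 were tested: 9 were higher and 4 lower DEGs in WT after tFCI (median log2FC 0.15), 10 and 5 in miKO (0.30), 4 and 2 in miKO-Sham vs. WT-Sham (0.02) and 2 and 3 in miKO-tFCI vs. WT-tFCI (0.28). Of all genes tested, 20.9% were higher and 11.7% lower DEGs in the first of these comparisons, 21.9% and 13.9% in the second, 8.58% and 6.8% in the third and 4.08% and 4.71% in the last, so that the surgery counts lay near the shares of all genes. *Slc2a6*, a glucose transporter of lysosomes in macrophages, had 2.28, 2.13 and 3.08 CPM in WT-Sham and 100.3 to 134 CPM in miKO-Sham and WT-tFCI libraries. It rose after tFCI in WT, by 5.43 to 5.72 on the log2 scale over 23 alternatives, and did not pass after tFCI in miKO. *Eno3*, the muscle enolase, had 17.4, 20.4 and 26.5 CPM in WT-Sham, 121, 113 and 174 in miKO-Sham, 17.2, 12.3 and 13.6 in WT-tFCI and 39.5, 38.8 and 40.9 in miKO-tFCI, and was higher in miKO-Sham (2.67 ± 0.20, adjusted p = 5.12e-07) and miKO-tFCI (1.46 ± 0.20, adjusted p = 0.000382) than in WT, and fell after tFCI in miKO (-1.78 ± 0.19, adjusted p = 6.2e-06). *Aldoc*, the aldolase of astrocytes, rose after tFCI in WT (2.05 ± 0.35, adjusted p = 0.000352) and miKO (2.17 ± 0.32, adjusted p = 0.000108) and was higher in miKO-Sham (1.19 ± 0.37, adjusted p = 0.0341) and miKO-tFCI (1.32 ± 0.30, adjusted p = 0.0135) than in WT, beside astrocyte markers that summed to 170 to 287 CPM in WT-tFCI and 208.5 to 598.8 in miKO-tFCI, and their part was not tested. *Pygl*, glycogen phosphorylase, rose in WT (0.88 ± 0.22, adjusted p = 0.0061), and *Pdha1*, the catalytic subunit of pyruvate dehydrogenase, in miKO (1.27 ± 0.23, adjusted p = 0.000587). *Slc2a5*, the fructose transporter GLUT5 and a microglial marker, had 636, 722 and 757 CPM in WT-Sham, 355, 309 and 598 in miKO-Sham, 260, 244 and 246 in WT-tFCI and 116, 110.2 and 126 in miKO-tFCI. It fell after tFCI in WT (-1.49 ± 0.20, adjusted p = 4.03e-05) and miKO (-1.83 ± 0.20, adjusted p = 7.32e-06) and was lower in miKO than WT in Sham (-0.75 ± 0.19, adjusted p = 0.0139) and after tFCI (-1.09 ± 0.20, adjusted p = 0.003). *Slc2a5* is one of the 10 genes of the microglial marker sum. *Slc16a7*, the transporter MCT2, fell in WT (-1.20 ± 0.19, adjusted p = 0.000181) and was lower in miKO than WT in Sham (-0.80 ± 0.19, adjusted p = 0.007) and after tFCI (-0.79 ± 0.20, adjusted p = 0.0217). It also passed as lower after tFCI in miKO, with a log2FC of -1.37 to -1.04 over 23 alternatives, none of which lost the call. *Ldhd*, a D-lactate dehydrogenase, fell in WT (-1.05 ± 0.36, adjusted p = 0.0319), and of the pyruvate dehydrogenase phosphatases *Pdp1* rose (1.14 ± 0.43, adjusted p = 0.0445) and *Pdp2* fell (-1.32 ± 0.24, adjusted p = 0.000465) in miKO, *Pdp2* being lower in miKO-tFCI than WT-tFCI (-0.86 ± 0.24, adjusted p = 0.0336). The interaction called *Slc2a6* and *Eno3* (-1.21 ± 0.28, adjusted p = 0.0242) as lower. Some of these calls were lost when 1 library was left out. The *Slc2a5* difference in Sham was lost without miKO-Sham replicate 1 or 2 (adjusted p up to 0.0660), and the *Aldoc* difference after tFCI without WT-tFCI replicate 3 or miKO-tFCI replicate 1 (up to 0.0890). Without one or another of 4 libraries the same held for *Aldoc* in Sham (up to 0.135), *Slc16a7* after tFCI (up to 0.0921), *Ldhd* in WT (up to 0.108) and the *Eno3* interaction (up to 0.0726), for *Pdp2* between genotypes with 5 (up to 0.199) and for *Pdp1* in miKO with 8 of the 12 (up to 0.224). The *Slc16a7* difference in Sham kept its call in each such fit but lost it without the batch term, with miKO-Sham replicate 2 placed in batch 1 and with miKO-Sham replicates 1 and 2 summed (up to 0.0710).

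The pentose phosphate pathway branches from glycolysis at glucose phosphate and makes NADPH and ribose. All 10 of its listed genes were tested, and the shares of all genes just given are the background for their counts too. In WT 4 were higher DEGs after tFCI (median log2FC 0.49), led by *Prps1* (0.91 ± 0.25, adjusted p = 0.0102), *Tkt* (0.69 ± 0.13, adjusted p = 0.00071) and *Pgls* (0.69 ± 0.15, adjusted p = 0.00259), and in miKO 3 were higher and 1 lower (median 0.06): *Prps2* (1.29 ± 0.19, adjusted p = 8.66e-05), *Prps1* (0.79 ± 0.24, adjusted p = 0.0182) and *Rpe* (0.61 ± 0.22, adjusted p = 0.0348) rose and *Rpia* fell (-1.21 ± 0.42, adjusted p = 0.0293). Between genotypes 4 were higher DEGs in miKO-Sham (median 0.54) and 4 in miKO-tFCI (median 0.28). *Taldo1*, transaldolase, had 130.2, 119 and 109 CPM in WT-Sham, 386, 366 and 306 in miKO-Sham, 198, 188 and 166 in WT-tFCI and 304, 321 and 321 in miKO-tFCI, and was higher in miKO-Sham (1.56 ± 0.13, adjusted p = 1.34e-06) and in miKO-tFCI (0.78 ± 0.13, adjusted p = 0.00154). *G6pdx*, the first enzyme of the pathway, had 73.0, 84.0 and 98.3 CPM in WT-Sham, 207, 209 and 171 in miKO-Sham, 90.5, 97.3 and 93.0 in WT-tFCI and 139, 156 and 193 in miKO-tFCI, and was higher in both (1.21 ± 0.15, adjusted p = 4.04e-05 and 0.79 ± 0.15, adjusted p = 0.00379). *Pgd*, which makes NADPH in its second oxidation, had 133, 164 and 159.7 CPM in WT-Sham, 389, 375 and 343 in miKO-Sham, 194, 200 and 207 in WT-tFCI and 225, 362 and 385 in miKO-tFCI, and was also higher in both (1.29 ± 0.16, adjusted p = 4.41e-05 and 0.67 ± 0.16, adjusted p = 0.0149). In each of the 3 the miKO-Sham libraries did not overlap those of any WT group. The interaction called *Taldo1* as lower (-0.78 ± 0.18, adjusted p = 0.0259). The *Prps1* call was lost without WT-Sham or WT-tFCI replicate 1 in WT (adjusted p up to 0.0644) and without miKO-Sham replicate 1 or miKO-tFCI replicate 1 or 3 in miKO (up to 0.134), and that of *Pgd* after tFCI without WT-tFCI replicate 2 or 3 or miKO-tFCI replicate 3 (up to 0.0777). For *Rpia* 4 libraries each ended the call (up to 0.139), for *Rpe* 6 (up to 0.295) and for the *Taldo1* interaction 7 (up to 0.0993).

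Of 40 further genes of oxygen sensing and HIF targets, 37 were tested, and 16 were higher and 5 lower DEGs in WT after tFCI (median log2FC 0.61) and 16 and 6 in miKO (median 0.71). Over all genes these shares were 20.9% and 11.7% in WT and 21.9% and 13.9% in miKO, near those of the lower DEGs in the list. *Angptl4*, a lipase inhibitor, had 0.601, 1.79 and 0.718 CPM in WT-Sham, 1.94, 1.94 and 3.71 in miKO-Sham, 40.3, 22.6 and 27.3 in WT-tFCI and 107, 58.2 and 55.0 in miKO-tFCI, and rose in WT (4.79 ± 0.37, adjusted p = 2.45e-07) and miKO (4.78 ± 0.34, adjusted p = 1.5e-07). *Lox*, lysyl oxidase, had 0 to 0.224 CPM in WT-Sham and 0 to 1.11 in miKO-Sham against 6.46 to 14.4 in WT-tFCI and 16.2 to 27.6 in miKO-tFCI, too few counts in Sham for a fold. *Plod2*, lysyl hydroxylase, was at 0 in all but 1 of the Sham libraries and had 3.05 to 10.9 CPM in WT-tFCI and 8.42 to 21.2 in miKO-tFCI. *Ankzf1* fell in WT (-0.96 ± 0.16, adjusted p = 0.000351) and miKO (-1.09 ± 0.17, adjusted p = 0.000133), as did *Narf* (-0.85 ± 0.15, adjusted p = 0.000426 and -1.21 ± 0.15, adjusted p = 2.32e-05). *Kdm4b*, a histone demethylase, fell in WT (-0.76 ± 0.17, adjusted p = 0.00325) and was lower in miKO-Sham than WT-Sham (-0.90 ± 0.18, adjusted p = 0.00228). *Vhl*, part of the ligase that destroys hydroxylated HIF alpha, was higher in miKO-Sham vs. WT-Sham (0.73 ± 0.13, adjusted p = 0.00116) and fell after tFCI in WT (-0.62 ± 0.13, adjusted p = 0.00205) and miKO (-1.01 ± 0.13, adjusted p = 3.73e-05). Between genotypes 4 were higher and 2 lower DEGs in Sham (median 0.10) and 5 and 1 after tFCI (median 0.18; all genes 8.58% and 6.8%, then 4.08% and 4.71%), where *Lox* (1.43 ± 0.39, adjusted p = 0.0306), *P4ha2* (1.35 ± 0.33, adjusted p = 0.0177) and *Ndrg1* (1.30 ± 0.25, adjusted p = 0.00468) were the highest and *Cited2*, an inhibitor of HIF, was lower (-0.97 ± 0.14, adjusted p = 0.000581). Leaving out miKO-tFCI replicate 1 ended the *Ndrg1* call (adjusted p = 0.0584), and 4 libraries each ended those of *Lox* (up to 0.166) and *P4ha2* after tFCI (up to 0.0981).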

How the data were processed

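RNA-seq counts of 12 libraries were analysed (sorted microglia of WT and miKO mice after Sham surgery or tFCI, 3 per group). The deposited files hold whole-number read counts per Ensembl gene, 1 column per library, and 0 columns of other samples. According to the submitters' processing notes the authors used FastQC 0.11.9, Trim Galore, HISAT2 2.2.1, SAMtools and HTSeq 1.99.2 with mm10/GRCm38.p6, and libraries were made with a kit that does not mark strand. Rows that name no gene were left out of library sizes, and 30.7% to 38.5% of the deposited total fell on genes.

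The members, their roles and the other gene lists were chosen with earlier results of these data known. In R 4.3.3, edgeR 4.0.16 (TMM factors, filterByExpr, quasi-likelihood F-test) was fitted once to all 12 libraries with group and batch as terms, and p-values were adjusted by Benjamini-Hochberg over 16451 genes. All 33 members are named. From each further list the called genes of largest log2FC are named, at most 3 per direction and comparison, among genes with a mean of 5 CPM or more in a compared group. Gene names and transcript lengths came from a GRCm38 annotation that held 55141 of 55401 identifiers, promoters from RefSeq. Scripts were tested on simulated counts. Replicate numbers mark batch, and same-numbered libraries did not deviate together in every pair (correlations from -0.0607 to 0.666), so they were not paired. Alternatives were DESeq2 1.42.0, other scalings and filters, no batch term, a replicate block, single batches, and each library left out.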

Additional observations from a re-analysis of the deposited data

Results flagged for a closer look

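The effect of tFCI on *Eno1* differed between the genotypes by a test of the difference itself: the interaction of genotype and surgery was -1.09 ± 0.19 (SE) on the log2 scale (edgeR, Benjamini-Hochberg adjusted p = 0.00465). Its 3 WT-Sham libraries stood at 312 to 321 CPM and its 3 miKO-Sham libraries at 837 to 1005 CPM, while both tFCI groups ranged higher than WT-Sham. The value was -1.09 in batch 1 and -1.10 in batch 2. It was the 1 member of 33 that this test called, where 2.57% of all genes tested were called lower.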

How the results depend on the processing

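Of 3793 member results recomputed under an alternative, 3567 kept their side of the threshold, 143 of these with the other sign while uncalled in both, 155 lost the call, 69 gained one and 2 reversed. The reversed ones were *Gapdh* with the counts of near-identical copies added, at 0.89 after tFCI in WT and 0.54 after tFCI in miKO, where the added counts themselves changed the value. Of 125 results of the further lists that passed the test, recomputed 2837 times, 333 of the recomputed values lost the call and 0 reversed. For other results that moved, the cause was not tested. With at least 10 counts in every library the member median in WT-tFCI vs. WT-Sham was 0.736, with 2 lower DEGs in miKO-Sham vs. WT-Sham, 0 lower in miKO-tFCI vs. WT-tFCI and 2 lower for the interaction. Without the batch term there was 1 lower DEG in WT-tFCI vs. WT-Sham, 0 lower in miKO-Sham vs. WT-Sham and 0 higher and 0 lower in miKO-tFCI vs. WT-tFCI. In batch 2 alone the counts were 1 lower in WT-tFCI vs. WT-Sham, 2 lower in miKO-Sham vs. WT-Sham, 4 higher and 2 lower in miKO-tFCI vs. WT-tFCI and 1 higher and 3 lower for the interaction, and the medians were 0.634 in miKO-tFCI vs. miKO-Sham, 0.134 in miKO-Sham vs. WT-Sham and -0.183 for the interaction. RLE scaling gave 0 lower in miKO-tFCI vs. WT-tFCI and 2 lower for the interaction, upper-quartile scaling 2 lower for the interaction, and no filter on low counts 2 lower in miKO-tFCI vs. WT-tFCI and 3 higher and 4 lower for the interaction. DESeq2 gave 2 higher and 3 lower for the interaction, and the miKO-Sham replicate 2 library placed in batch 1, chosen after seeing the data, gave 2 and 2. Across these scalings the median of all genes stayed within -0.0381 and 0.0643.

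Leaving out each library in turn gave 17 to 18 higher and 1 to 3 lower DEGs in WT-tFCI vs. WT-Sham (median 0.741 to 0.881), 16 to 19 and 3 to 5 in miKO-tFCI vs. miKO-Sham (0.682 to 0.837), 4 to 7 and 0 to 2 in miKO-Sham vs. WT-Sham (-0.0888 to 0.169), 0 to 3 and 0 to 2 in miKO-tFCI vs. WT-tFCI (0.0412 to 0.182), and 0 to 1 and 1 to 3 for the interaction (-0.0761 to 0.102). With the replicate number as a block in place of batch the counts were 18 and 2, 19 and 4, 6 and 1, 2 and 1, and 0 and 1, and the medians 0.858, 0.843, -0.0189, 0.125 and 0.0358, so that the block changed no count. At 7697864 to 9452222 counts per library, *Adm*, *Egln3* and *Eno2* had at most 16 counts in each Sham library, which limits their folds.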
